A study of Mus musculus with 11 samples.

Results

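Monocyte-attracting CC chemokines and the receptor Ccr2 were followed in livers of E15.5 mouse embryos of 4 genotypes. The 9 genes were Ccl2, Ccl3, Ccl4, Ccl5, Ccl6, Ccl7, Ccl9, Ccl12 and Ccr2, taken by gene symbol through the GRCm38 annotation from the 52636 genes of the count tables. All 9 were present and all 9 passed the filter on low counts. Livers came from wild-type embryos (WT, 3 livers), embryos lacking the TNF receptor TNFR1 (TNFR1KO, 2 livers), embryos lacking caspase-8 and MLKL (Casp8 MLKL dKO, 3 livers) and embryos lacking caspase-8 and TNFR1 (Casp8 TNFR1 dKO, 3 livers). All were on a C57BL/6 N background and received no treatment. Caspase-8 is a protease that starts apoptosis below death receptors and restrains necroptosis, MLKL is the protein that ruptures the cell in necroptosis, and TNFR1 is a death receptor. The deletions were carried by the whole embryo, so a difference in the liver cannot be assigned to a cell type in which the gene was lost. The sources used here do not say how the livers fell into litters, and p-values measure the spread between these livers.

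Libraries held 23129212 to 35819339 gene-assigned reads. Levels are given as CPM, the reads of a gene scaled to a common library size after correction with the TMM method. Casp8 reads were at 27.7 to 33.9 CPM in the WT and TNFR1KO livers and at 7.82 to 21.9 CPM in both genotypes lacking caspase-8. Mlkl was at 0.73 to 1.22 CPM in the Casp8 MLKL dKO livers and at 3.68 to 4.46 CPM in the WT and TNFR1KO livers. Tnfrsf1a, the gene for TNFR1, was not lower in the livers labelled as lacking it (49.8 and 50.5 CPM in TNFR1KO against 47.1 to 53.4 CPM in WT, and 76.9, 76.0 and 425 CPM in Casp8 TNFR1 dKO). Gene-level counts therefore do not check that part of the label, and every direction below refers to the livers labelled TNFR1KO or Casp8 TNFR1 dKO. The library of Casp8 TNFR1 dKO liver 3 stood apart. Its correlation of log2 CPM with the other livers was 0.84 to 0.891, whereas the other 10 correlated at 0.949 or more with each other, and its summed level of 8 striated muscle markers was 1320 CPM against 2.39 to 18.5 CPM elsewhere. Casp8 MLKL dKO liver 1 had the highest summed hepatocyte and macrophage markers. Several results that lean on either library are given with and without it.

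CC chemokines are small secreted proteins named for a pair of adjacent cysteines near the start of the mature protein. They bind G protein-coupled receptors on leukocytes and draw the cells toward higher concentrations. In mice, Ccl2, Ccl7 and Ccl12 encode ligands of CCR2, the receptor that lets inflammatory monocytes leave the bone marrow and enter tissue. Ccl3, Ccl4 and Ccl5 encode inflammatory chemokines of activated leukocytes, and CCR1 binds several CC ligands, among them the products of Ccl3, Ccl5, Ccl6 and Ccl9. The fetal liver is the main blood-forming organ at this age and also holds resident macrophages and maturing monocytes.

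The pair of cysteine codons that gives the family its name is shown for each of the 8 ligands, since it is the feature they share and the surrounding letters show how far the genes have diverged. Each stretch is 48 bases of spliced coding sequence from the GENCODE M21 annotation of GRCm38, written 5′ to 3′ on the coding strand, with the adjacent cysteine codons in capitals.
Ccl2: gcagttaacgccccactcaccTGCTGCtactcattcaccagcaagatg
Ccl7: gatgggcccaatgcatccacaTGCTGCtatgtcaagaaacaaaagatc
Ccl12: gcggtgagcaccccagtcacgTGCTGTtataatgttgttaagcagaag
Ccl3: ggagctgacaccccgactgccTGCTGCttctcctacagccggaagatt
Ccl4: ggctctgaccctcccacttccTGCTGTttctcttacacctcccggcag
Ccl5: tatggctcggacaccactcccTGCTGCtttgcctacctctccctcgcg
Ccl6: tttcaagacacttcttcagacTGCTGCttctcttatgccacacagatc
Ccl9: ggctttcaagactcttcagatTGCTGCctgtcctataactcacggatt

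Outside the capitals the letters differed widely. The most similar pair of coding sequences was Ccl3 and Ccl4, at 68.1% identity over the aligned columns, followed by Ccl6 and Ccl9 at 64.6%, Ccl7 and Ccl12 at 63.2%, and Ccl3 and Ccl5 at 62.8%. Ccl2 and Ccl5 gave the lowest value, at 38.5%. Gap columns were counted as unlike. The coding sequence of Ccl2 (444 bases) is much longer than that of Ccl5 (273 bases), so length lowers this value as well as differing letters. The reads were 50 bases long, so exact 50-base stretches shared with transcripts of other genes were counted. None of the transcript stretches of Ccl2, Ccl3, Ccl4, Ccl5, Ccl6, Ccl7 or Ccl12 was shared. In Ccl9 1.995% of stretches were shared, in a sequence repeated in 463 genes, and in Ccr2 3.729% were shared with 1 other gene.

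Promoter sequence was matched in RefSeq for 5 of the 9 genes (Ccl12, Ccl3, Ccl6, Ccl9 and Ccr2). The 150 bases before the annotated start are shown for 2 genes whose levels rose in the Casp8 TNFR1 dKO livers and for 1 that did not pass the test, from GRCm38.p6 and written 5′ to 3′ on the strand of the gene. Capitals mark matches to the motifs searched on both strands of 250 bases: the NF-kappaB consensus, AP-1 (TGANTCA), the interferon-stimulated response element (ISRE) and the TATA box (TATAAA).
Ccl12 (chr11:82101695-82101844, + strand): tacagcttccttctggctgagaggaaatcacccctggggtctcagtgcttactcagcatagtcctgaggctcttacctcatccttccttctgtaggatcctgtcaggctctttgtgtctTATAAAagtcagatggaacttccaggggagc
Ccl3 (chr11:83649379-83649528, - strand): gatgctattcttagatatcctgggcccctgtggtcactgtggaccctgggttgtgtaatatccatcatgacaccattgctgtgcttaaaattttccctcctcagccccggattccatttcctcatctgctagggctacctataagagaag
Ccl9 (chr11:83578637-83578786, - strand): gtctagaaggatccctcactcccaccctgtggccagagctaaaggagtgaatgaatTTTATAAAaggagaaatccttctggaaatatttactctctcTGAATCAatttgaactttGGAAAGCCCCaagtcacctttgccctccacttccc

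Ccl12 held a TATA match 31 to 26 bases before its start. Ccl9, which did not pass the test in any comparison of the reported fit, held TATA matches, 2 of which overlap in the capitals shown, an AP-1 match 53 to 47 bases before its start and a match to the NF-kappaB consensus 35 to 26 bases before it. The windows of Ccl3, Ccl6 and Ccr2, placed by the RefSeq starts, held none of the 4 motifs. For Ccr2 the window ended at base 124102182, whereas GENCODE starts the gene at 124101950. It therefore lay mostly inside that gene and says little of the bases before the GENCODE start. Of all 32851 promoters in the table, 7.25% held the NF-kappaB consensus, 6.75% AP-1, 2.98% the interferon-stimulated response element and 12.4% the TATA box.

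Of the 9 genes, 5 (Ccl2, Ccl3, Ccl4, Ccl7 and Ccl12) rose in the Casp8 TNFR1 dKO livers against each of the other 3 genotypes, and none fell. A rise means an adjusted p below 0.05 in edgeR's quasi-likelihood test, adjusted by Benjamini and Hochberg over all 17243 genes tested. Among all genes tested, 5.10% were called higher and 0.702% lower against WT, 2.05% and 0.122% against TNFR1KO, and 1.54% and 0.116% against Casp8 MLKL dKO. Only 1.30% were called higher in all 3 comparisons. The median log2 fold change of the 9 genes was 3.56, 3.71 and 3.26 in these comparisons, beside all-gene medians of -0.0015, -0.014 and -0.033. The 3 comparisons share the same Casp8 TNFR1 dKO livers, so they are not separate evidence. Ccl5, Ccl7 and Ccl12 reached the count filter in at most 1 of the 8 other livers and would not have entered the test without the Casp8 TNFR1 dKO livers.

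Against WT the 5 calls held when any of the 11 livers was left out. Against TNFR1KO, leaving out liver 1 or liver 2 of that genotype left 1 call (Ccl2). With 1 TNFR1KO liver left, that liver is assumed to vary like those of the other genotypes. Against Casp8 MLKL dKO the calls for Ccl3 and Ccl12 were lost without Casp8 MLKL dKO liver 2 or liver 3, and the call for Ccl12 also without TNFR1KO liver 1. When only the livers of the 2 genotypes compared entered the fit, 5 genes were called against WT, 3 against TNFR1KO (Ccl3, Ccl4 and Ccl7) and 1 against Casp8 MLKL dKO (Ccl7).

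**Figure D1:**
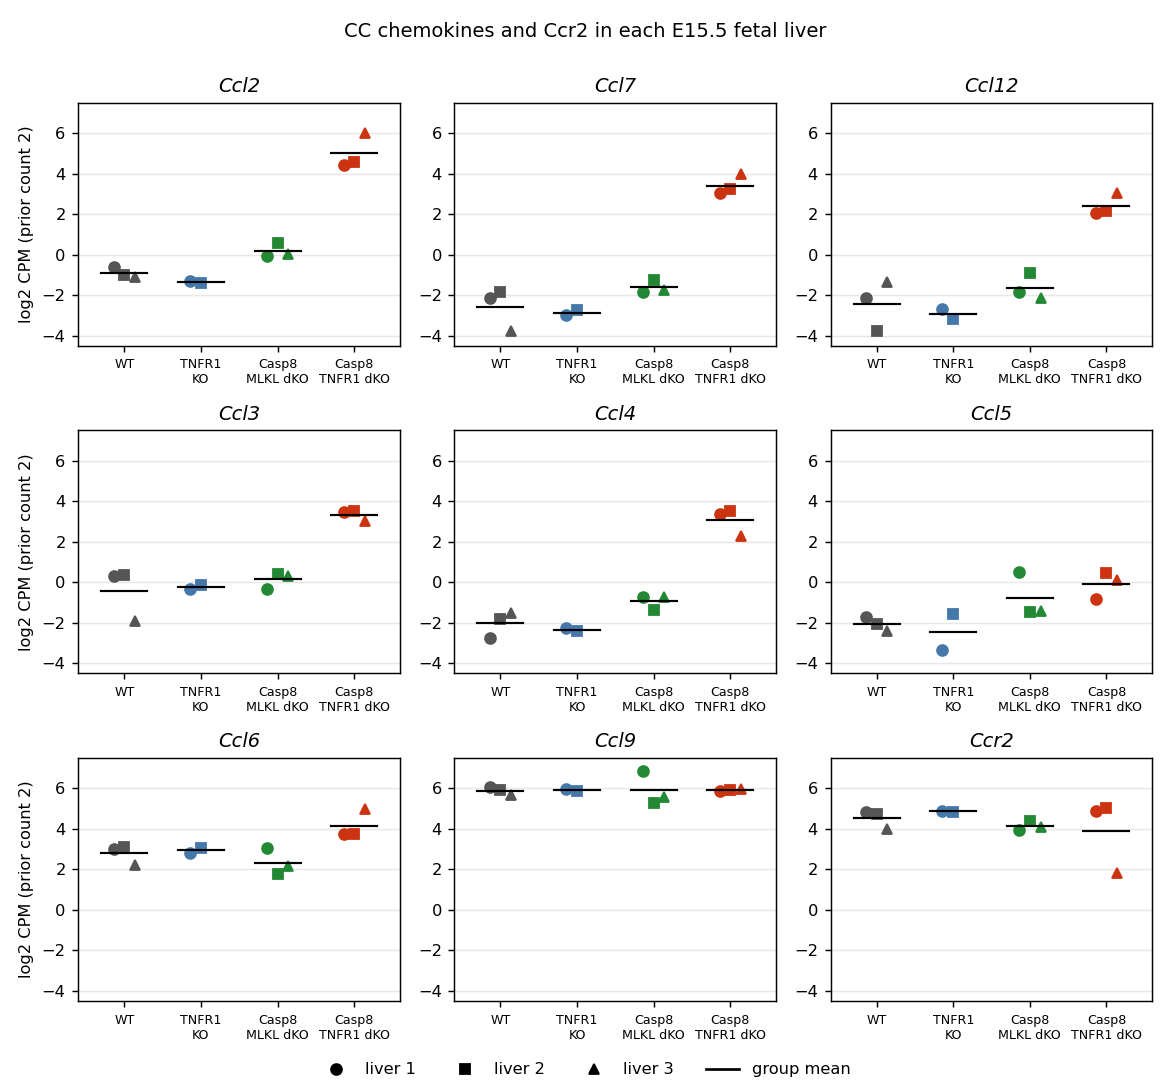
Level of each of the 9 genes in each of the 11 livers, as log2 CPM with a prior count of 2, by genotype. Symbols mark the liver number and bars the group means. The 3 Casp8 TNFR1 dKO livers lie above all 8 others for Ccl2, Ccl7, Ccl12, Ccl3, Ccl4 and Ccl6, and amid them for Ccl9.

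Every Casp8 TNFR1 dKO liver was above all 8 other livers for 6 of the 9 genes (Ccl2, Ccl3, Ccl4, Ccl6, Ccl7 and Ccl12), where 7.43% of all genes tested showed that order. For none of the 9 was every Casp8 TNFR1 dKO liver below the others, an order seen in 3.32% of genes tested. A two-sided exact permutation test of the 3 livers against the other 8 gives any gene in this order its smallest p, 0.0121 over 165 splits, so for these 6 genes the p repeats the order. The 8 other livers mix 3 genotypes.

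The 3 CCR2 ligands among the 9 genes rose. Ccl2, which encodes the main CCR2 ligand, was at 0.58, 0.42 and 0.39 CPM in the WT livers, at 0.33 and 0.30 CPM in the TNFR1KO livers, at 0.89, 1.42 and 0.96 CPM in the Casp8 MLKL dKO livers and at 21.4, 23.8 and 64.5 CPM in the Casp8 TNFR1 dKO livers. All 3 Casp8 TNFR1 dKO livers were far above the rest, and liver 3 was above the other two. The log2 fold change was 6.28 ± 0.51 (SE) against WT, a 77.9-fold difference (adjusted p = 0.000164, edgeR). It was 6.83 ± 0.63 against TNFR1KO (adjusted p = 0.00059, edgeR) and 5.05 ± 0.47 against Casp8 MLKL dKO (adjusted p = 0.000896, edgeR). Without Casp8 TNFR1 dKO liver 3 the 3 log2 fold changes were 5.60, 6.14 and 4.36, and each remained called.

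Ccl7, whose product also binds CCR2, lies beside Ccl2 on chromosome 11. It was close to undetected in the control livers, with 0 to 5 reads in the WT livers, 2 in each TNFR1KO liver and 5 to 12 in the Casp8 MLKL dKO livers. The Casp8 TNFR1 dKO livers held 270 to 273 reads each, or 8.24, 9.29 and 15.6 CPM. In pooled reads the ratio to WT was 85.6 (exact 95% interval 44.9 to 188), and the ratio to TNFR1KO was 161 (62.6 to 592). These intervals cover counting error only. The fitted log2 fold changes were 6.47 ± 0.66 against WT, 7.33 ± 0.83 against TNFR1KO and 5.36 ± 0.60 against Casp8 MLKL dKO (adjusted p = 0.000675, 0.00207 and 0.00246, edgeR). With livers left out in turn the first ran from 5.9 to 7.07, the highest without WT liver 2. It was 6.15 without Casp8 TNFR1 dKO liver 3.

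Ccl12, the last of these CCR2 ligands, held 0 to 8 reads in the WT livers, 3 and 1 in the TNFR1KO livers, 4 to 16 in the Casp8 MLKL dKO livers and 126 to 143 in the Casp8 TNFR1 dKO livers. On the CPM scale the last group was at 4.03, 4.34 and 8.15, and no other liver passed 0.46. All 3 Casp8 TNFR1 dKO livers were again above the rest, with liver 3 the highest. Log2 fold changes were 5.08 ± 0.79 against WT, 6.36 ± 1.03 against TNFR1KO and 4.27 ± 0.73 against Casp8 MLKL dKO (adjusted p = 0.00609, 0.0133 and 0.0209, edgeR). With so few control reads the sizes depended on single livers. With livers left out in turn they ran from 4.53 to 6.04 against WT, 5.96 to 6.99 against TNFR1KO and 3.86 to 4.93 against Casp8 MLKL dKO. The highest values came without WT liver 3, TNFR1KO liver 1 and Casp8 MLKL dKO liver 2. Without Casp8 TNFR1 dKO liver 3 the sizes were 4.69, 5.96 and 3.86.

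Of the inflammatory chemokines Ccl3, Ccl4 and Ccl5, the first pair rose and Ccl5 did not pass the test. Ccl3 encodes macrophage inflammatory protein 1 alpha, made by activated macrophages and other leukocytes. It was at 1.15, 1.22 and 0.20 CPM in WT, 0.71 and 0.84 CPM in TNFR1KO, 0.73, 1.25 and 1.18 CPM in Casp8 MLKL dKO, and 11.1, 11.3 and 7.98 CPM in Casp8 TNFR1 dKO livers. The Casp8 TNFR1 dKO livers lay close together for this gene, and liver 3 was the lowest of them. The log2 fold changes were 3.56 ± 0.54, 3.71 ± 0.64 and 3.26 ± 0.53 against WT, TNFR1KO and Casp8 MLKL dKO (adjusted p = 0.00544, 0.0176 and 0.016, edgeR).

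Ccl4, the beta form of the same protein family and the neighbour of Ccl3, was at 0.08, 0.21 and 0.28 CPM in WT, 0.14 and 0.11 CPM in TNFR1KO, 0.53, 0.32 and 0.54 CPM in Casp8 MLKL dKO, and 10.1, 11.5 and 4.79 CPM in Casp8 TNFR1 dKO livers. Like Ccl3 and unlike the CCR2 ligands, it was lowest in liver 3 among the Casp8 TNFR1 dKO livers. The Casp8 TNFR1 dKO livers did not overlap the 8 other livers, which held only 2 to 14 reads each. In pooled reads the ratio of Ccl4 to WT was 50.7 (exact 95% interval 30.0 to 93.2), an interval that covers counting error only. Its log2 fold changes were 5.53 ± 0.51, 6.07 ± 0.63 and 4.26 ± 0.47 (adjusted p = 0.000358, 0.00127 and 0.00224, edgeR).

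Ccl5 encodes RANTES, a ligand of CCR1 and CCR3 made mainly by T and NK cells and inducible in other cells. It stayed at low levels everywhere: 0.23, 0.17 and 0.12 CPM in WT, 0.03 and 0.27 CPM in TNFR1KO, 1.34, 0.29 and 0.31 CPM in Casp8 MLKL dKO, and 0.49, 1.31 and 1.03 CPM in Casp8 TNFR1 dKO livers. Casp8 MLKL dKO liver 1 held the highest value of all, and through it these 2 genotypes overlapped. Livers 2 and 3 of Casp8 MLKL dKO were below every Casp8 TNFR1 dKO liver. The log2 fold changes of Ccl5 were 2.41 ± 0.83 against WT (95% interval 0.55 to 4.27), 2.73 ± 0.99 against TNFR1KO and 0.55 ± 0.74 against Casp8 MLKL dKO. None passed (adjusted p = 0.118, 0.213 and 0.72, edgeR). Without Casp8 MLKL dKO liver 1 the last was 1.64 ± 0.72 and was not called (adjusted p = 0.281, edgeR). The exact permutation test of the 3 livers against the other 8 gave p = 0.0485 for a difference of 1.60 in mean log2 CPM, unadjusted for the 9 genes. The call against WT was made by DESeq2 (adjusted p = 0.0452) and by limma with library quality weights (adjusted p = 0.0237), and the latter also made the call against TNFR1KO (adjusted p = 0.00534).

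Ccl6 and Ccl9 were the ligands with substantial reads in every liver. Both encode CCR1 ligands expressed by myeloid cells without need of an inflammatory stimulus. Ccl6 was at 7.95, 8.59 and 4.65 CPM in WT, 7.06 and 8.28 CPM in TNFR1KO, 8.23, 3.40 and 4.43 CPM in Casp8 MLKL dKO, and 13.4, 13.2 and 31.3 CPM in Casp8 TNFR1 dKO livers. The last group did not overlap the others, but liver 3 was well above its companions, and the difference missed the threshold in the edgeR fit reported here. Log2 fold changes were 1.44 ± 0.43 (adjusted p = 0.0813), 1.33 ± 0.49 (adjusted p = 0.225) and 1.85 ± 0.44 (adjusted p = 0.0762) against WT, TNFR1KO and Casp8 MLKL dKO in edgeR. Without Casp8 TNFR1 dKO liver 3 the first was 0.92 (adjusted p = 0.148, edgeR). Without Casp8 MLKL dKO liver 1 the calls against WT and against Casp8 MLKL dKO were made. DESeq2 called Ccl6 against WT (1.46, adjusted p = 0.0155) and against Casp8 MLKL dKO (1.85, adjusted p = 0.00215). With quality weights limma called it against WT (0.88, adjusted p = 0.00184), TNFR1KO (0.82, adjusted p = 0.00324) and Casp8 MLKL dKO (1.7, adjusted p = 5.58e-05), and edgeR with no filter on low counts called it against Casp8 MLKL dKO (1.80, adjusted p = 0.0302). Whether Ccl6 was called thus depended on the setting.

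Ccl9 held the highest level of the 9 genes in the control livers. It was at 67.9, 59.9 and 51.5 CPM in WT, 62.5 and 59.1 CPM in TNFR1KO, 118, 39.3 and 47.2 CPM in Casp8 MLKL dKO, and 57.7, 61.1 and 62.8 CPM in Casp8 TNFR1 dKO livers. The Casp8 TNFR1 dKO values fell within those of WT, and the only wide spread was in Casp8 MLKL dKO, where liver 1 was high. The log2 fold change against WT was 0.02 ± 0.35 with a 95% interval of -0.75 to 0.79, which leaves room for a change of less than 1 log2 unit either way (adjusted p = 0.978, edgeR). Against TNFR1KO and Casp8 MLKL dKO it was -0.01 and -0.17. The exact permutation p was 0.836.

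Ccr2, the receptor for Ccl2, Ccl7 and Ccl12, did not pass the test in any comparison of the reported edgeR fit. It was at 28.7, 26.5 and 15.9 CPM in WT, 29.6 and 28.4 CPM in TNFR1KO, 15.1, 20.9 and 16.9 CPM in Casp8 MLKL dKO, and 29.9, 32.6 and 3.42 CPM in Casp8 TNFR1 dKO livers. Livers 1 and 2 of the last group lay above every liver of the other genotypes, the highest of which was a TNFR1KO liver at 29.6 CPM. Liver 3 held the lowest value of all 11, although it had the most Ccl2. The log2 fold changes were -0.10 ± 0.60 against WT (95% interval -1.44 to 1.23), -0.39 ± 0.66 against TNFR1KO and 0.32 ± 0.60 against Casp8 MLKL dKO (adjusted p = 0.925, 0.766 and 0.798, edgeR). Without Casp8 TNFR1 dKO liver 3 they were 0.41, 0.11 and 0.83 (adjusted p = 0.327, 0.887 and 0.106, edgeR), so that liver decided the sign in the first 2. Against Casp8 MLKL dKO, Ccr2 was called higher by limma with library quality weights (0.76, adjusted p = 0.0221) and by edgeR without the libraries of low TMM factor, Casp8 TNFR1 dKO liver 3 and Casp8 MLKL dKO liver 1 (0.74, adjusted p = 0.018), a setting chosen after the data were seen. The exact permutation p over all livers was 0.545.

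**Figure D2:**
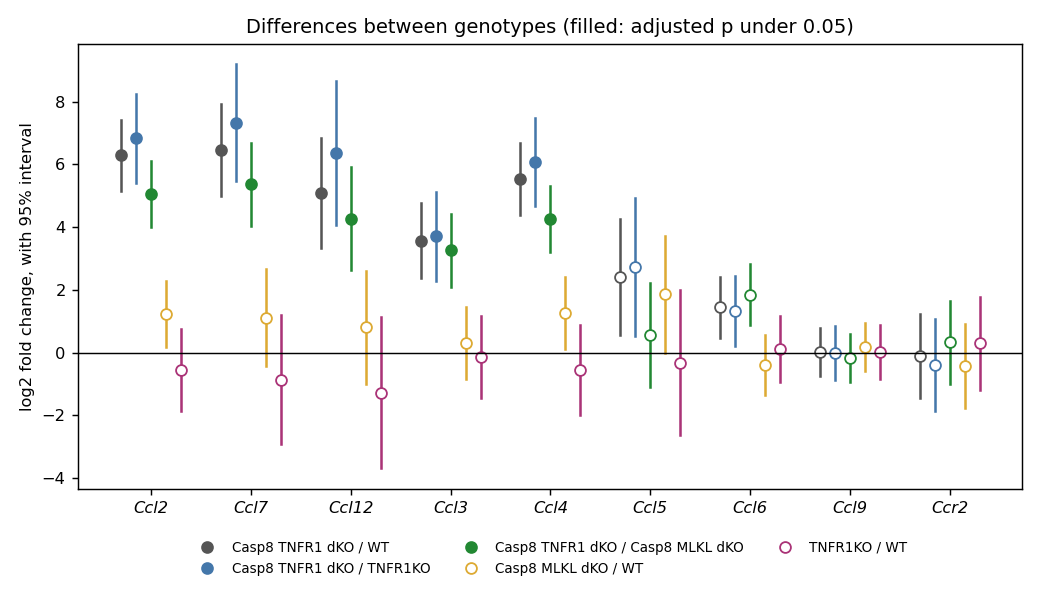
Log2 fold change of each gene in 5 comparisons of genotypes, with 95% intervals from edgeR. Filled points have an adjusted p under 0.05. The filled points are the Casp8 TNFR1 dKO comparisons of Ccl2, Ccl7, Ccl12, Ccl3 and Ccl4, while every point for Casp8 MLKL dKO or TNFR1KO against WT is open.

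The other comparisons ask whether loss of caspase-8 with MLKL, or of TNFR1 alone, moved these genes from WT. In Casp8 MLKL dKO against WT none of the 9 genes passed in edgeR, where 0.00580% of all genes tested were called higher and 0% lower. At an unadjusted p under 0.05 there were 2, Ccl2 (1.23 ± 0.48) and Ccl4 (1.27 ± 0.51), both with an adjusted p of 0.875. DESeq2 gave 3 genes and limma-voom 0 at that unadjusted level, and neither called any after adjustment. Ccl2, Ccl4 and Ccl5 were higher in every Casp8 MLKL dKO liver than in all 5 WT and TNFR1KO livers, an order that 5.61% of genes tested showed. The median log2 fold change of the 9 genes was 0.81, beside 0.028 for all genes.

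With library quality weights, which gave low weight to Casp8 MLKL dKO liver 1 and Casp8 TNFR1 dKO liver 3, limma found Ccl6 lower in Casp8 MLKL dKO than in WT (-0.82). With both of those libraries left out, a choice made after the data were seen, edgeR called Ccl2 higher (1.38), Ccl6 lower (-0.86) and Ccl9 lower (-0.47). Ccl6 and Ccl9 each had their highest Casp8 MLKL dKO value in liver 1. In TNFR1KO against WT none of the 9 genes was called, and none had an unadjusted p under 0.05 in edgeR, DESeq2 or limma-voom, where 0% of all genes were called in either direction. Intervals were wide for the genes with few reads, as for Ccl12 (-3.69 to 1.13), and narrower for Ccl9 (-0.84 to 0.89).

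The make-up of the ligand pool differed between genotypes. Levels of different genes were compared as CPM per kilobase of the transcript width in the deposited tables, where a longer transcript no longer counts for more. In WT livers Ccl9 was first at 19.9 ± 2.73 CPM per kb (SD, n = 3), followed by Ccl6 at 4.91 ± 1.47, Ccr2 at 3.5 ± 1.01, Ccl3 at 1.12 ± 0.75 and Ccl2 at 0.57 ± 0.12. The ranges of Ccl6 and Ccr2 overlapped, as did those of Ccl3 and Ccl2. In Casp8 TNFR1 dKO livers Ccl2 was first at 45.0 ± 29.8 CPM per kb, from 26.3, 29.3 and 79.3 in livers 1, 2 and 3. Its mean without liver 3 was 27.8, and in each liver it was above Ccl9, second at 20.1 ± 0.87. Ccl7, Ccl6, Ccl4, Ccl3 and Ccl12 followed at 10.3 to 13.8 CPM per kb, each overlapping the next. Ccr2 at 3.25 ± 2.39 and Ccl5 at 1.77 ± 0.78 CPM per kb were last.

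Summed over the 8 ligands the level was 27.5 ± 4.66 CPM per kb in WT, 27.6 ± 0.14 in TNFR1KO, 31.8 ± 16.6 in Casp8 MLKL dKO and 131 ± 39.5 in Casp8 TNFR1 dKO livers. The lowest Casp8 TNFR1 dKO liver, at 103 CPM per kb, was above the highest liver of the other genotypes, at 50.9, and the Casp8 TNFR1 dKO mean without liver 3 was 108 CPM per kb. Ccl9 made up 72.6% ± 3.89 (SD, n = 3) of the WT sum and 16.1% ± 3.71 of the Casp8 TNFR1 dKO sum (18.3% without liver 3). Its level was almost the same on the CPM scale. Ccl2 went from 2.07% ± 0.25 to 32.1% ± 11.2 (25.7% without liver 3) and Ccl7 from 0.51% ± 0.46 to 10.4% ± 0.56. The Ccl4 share went from 1.12% ± 0.75 to 11.4% ± 6.35 (15.1% without liver 3).

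Ligands of CCR2 were also set against the receptor. The summed level per kilobase of Ccl2, Ccl7 and Ccl12 was 0.28, 0.20 and 0.46 times that of Ccr2 in the WT livers and 0.14 and 0.13 times in the TNFR1KO livers. In the Casp8 MLKL dKO livers it was 0.77, 0.99 and 0.70 times, and in the Casp8 TNFR1 dKO livers 9.97, 10.1 and 225 times. The ligands were thus below the receptor in each of the 8 other livers and above it in each Casp8 TNFR1 dKO liver, with the ratio of liver 3 set by its low Ccr2 as well as its high Ccl2. The large deposited width of Ccr2 raises each of these ratios by the same factor. RNA levels of ligand and receptor say nothing of the protein present or of the cells that make each.

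**Figure D3:**
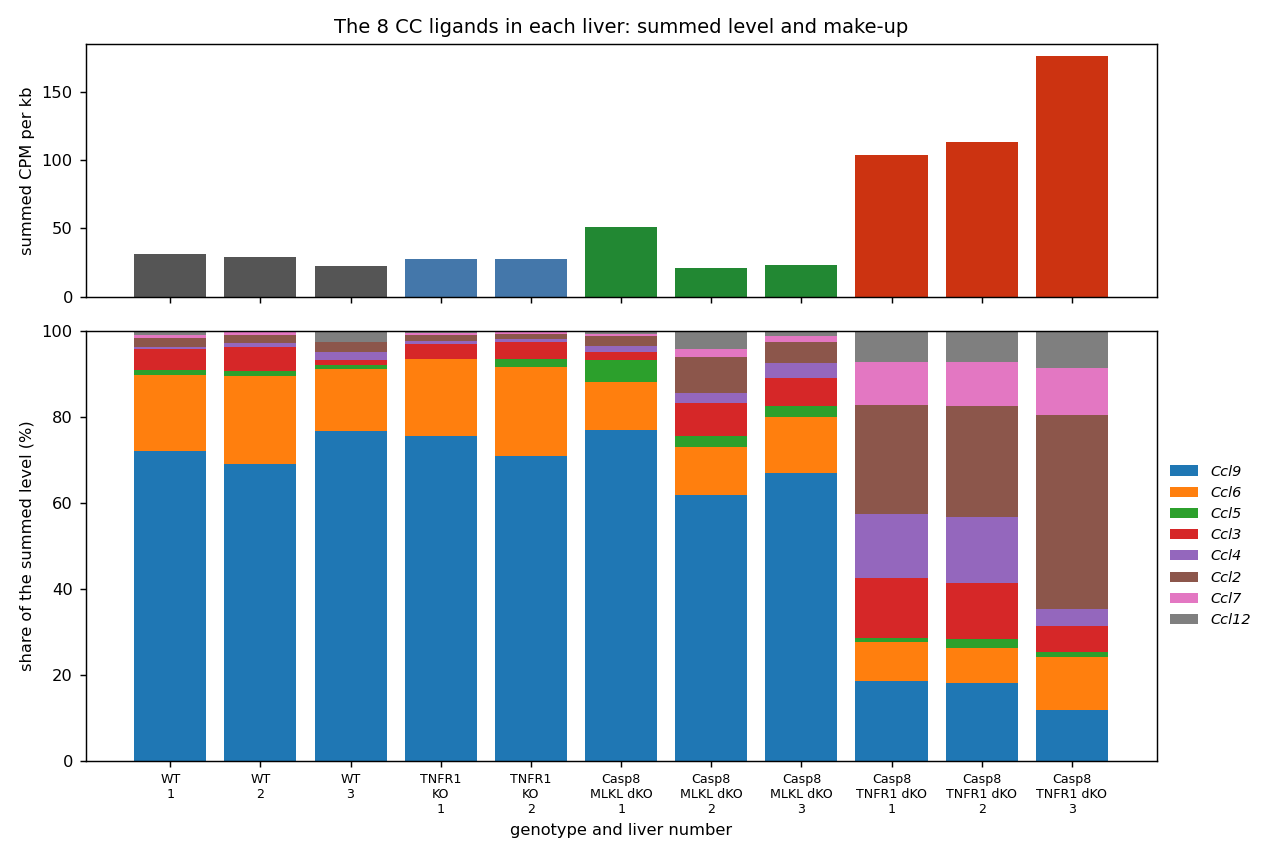
Summed level of the 8 ligands in each liver in CPM per kilobase (top) and the share of each ligand in that sum in percent (bottom). Ccl9 fills most of the bars of the 8 WT, TNFR1KO and Casp8 MLKL dKO livers and 11.9% to 18.6% of the Casp8 TNFR1 dKO bars, where the sum is 103 to 176 CPM per kb.

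The 8 ligand genes lie on chromosome 11 in a pair of groups 1422.4 kb apart. In GRCm38 Ccl2 (82035571 to 82037453), Ccl7 (82045712 to 82047525) and Ccl12 (82101845 to 82103400) share the + strand and span 67.8 kb. All 3 rose, and no other gene within the span or the 200 kb on either side was tested. Ccl11, which encodes eotaxin and lies in the same span, had too few reads to test. Its 67 reads over all livers fell mostly in the Casp8 TNFR1 dKO livers, with 5, 8 and 48, and 0 to 3 in each other liver.

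The second group spans 138.9 kb from Ccl5 (83525778 to 83530518) through Ccl9 (83572919 to 83578636), Ccl6 (83587882 to 83593087) and Ccl3 (83647844 to 83649355), all on the - strand, to Ccl4 (83662584 to 83664683) on the + strand. In that group only Ccl3 and Ccl4, at the far end from Ccl5, were called, so position in a group did not go with one outcome. Of 11 other tested genes in the 200 kb on either side, 1 was higher against WT, Wfdc21 (3.80, adjusted p = 0.0211, edgeR), and 0 were lower. Antisense genes crossed Ccl2 and Ccl6. Gm17268 across Ccl2 held 0 reads and E230016K23Rik across Ccl6 held 35 over all livers, against 151 for Ccl2 in the 8 livers other than Casp8 TNFR1 dKO and 1442 for Ccl6. Ccr2 lies apart on chromosome 9 (124101950 to 124113557, + strand).

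**Figure D4:**
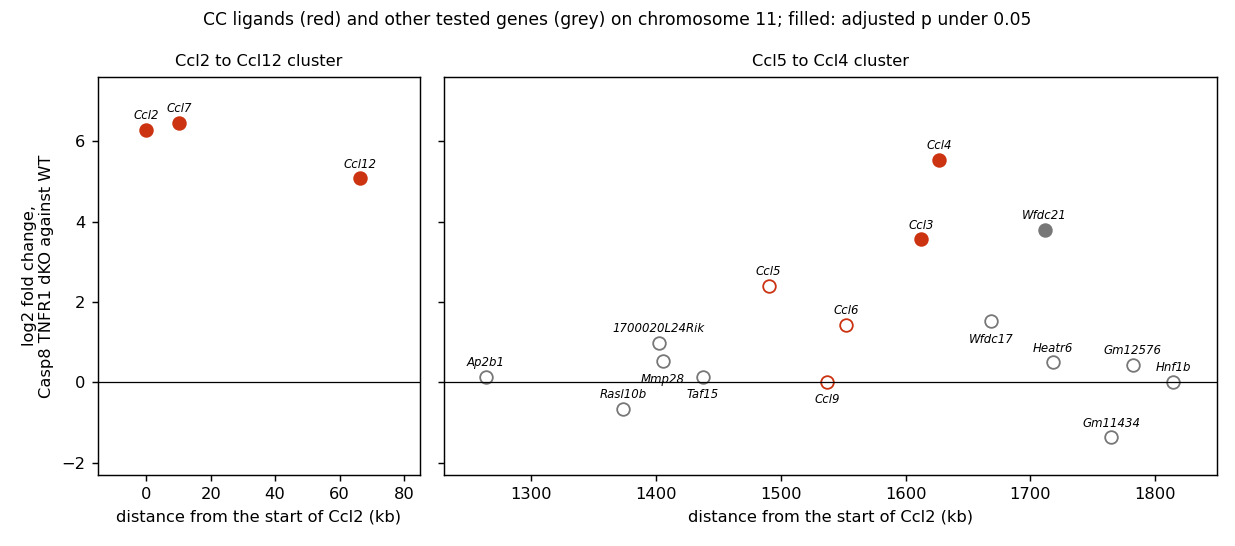
Log2 fold change of Casp8 TNFR1 dKO against WT for the 8 ligands (red) and other tested genes (grey) by distance in kb from the start of Ccl2. Filled points have an adjusted p under 0.05. All 3 ligands of the left group are filled and lie above 5, and in the right group Ccl3, Ccl4 and Wfdc21 are filled.

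Of 15 other CC ligands, 14 were matched in the tables and 6 had enough reads to test. Against WT 2 rose, Ccl24 and Ccl20, and 0 fell. Ccl24, which encodes an eosinophil-attracting ligand of CCR3, was at 6.49, 5.32 and 6.63 CPM in WT, 5.99 and 4.10 CPM in TNFR1KO, 1.54, 1.45 and 1.26 CPM in Casp8 MLKL dKO, and 23, 24.7 and 44.8 CPM in Casp8 TNFR1 dKO livers. It was thus highest in one of the genotypes lacking caspase-8 and lowest in the other, with no overlap between any of these and the 5 control livers. Its log2 fold changes were 2.33 ± 0.28, 2.61 ± 0.33 and 4.44 ± 0.31 (adjusted p = 0.00158, 0.00379 and 0.000168, edgeR). The one against TNFR1KO was not called when either TNFR1KO liver was left out. Without Casp8 TNFR1 dKO liver 3 the 3 log2 fold changes were 1.96, 2.24 and 4.07, and each was still called.

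Ccl24 in Casp8 MLKL dKO against WT was at -2.11 ± 0.29 (adjusted p = 0.0677, edgeR), a change that was called without Casp8 TNFR1 dKO liver 3 (adjusted p = 0.00359, edgeR). Ccl20, the ligand of CCR6, held 23, 24 and 7 reads in the Casp8 TNFR1 dKO livers, 0 in every WT liver, 0 and 1 in the TNFR1KO livers and 2, 0 and 3 in the Casp8 MLKL dKO livers. Its level was at least 17.1-fold higher than WT, taking 3 reads over the WT group as the floor, and only the comparison with WT was called (adjusted p = 0.0235, edgeR), a call lost when any WT or TNFR1KO liver was left out. Ccl8 held 2, 2 and 35 reads in the Casp8 TNFR1 dKO livers and was not tested. Ccl19, Ccl21a and Ccl21b were at 0 in all 11 livers.

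Of 13 other CC receptor genes 9 were tested. Against WT 2 of the 9 rose, Ccr1 among them, and 0 fell. Against TNFR1KO 1 rose and 0 fell, and against Casp8 MLKL dKO 2 rose and 0 fell. Ccr1, which binds the products of Ccl3, Ccl5, Ccl6 and Ccl9, was at 8.49, 6.41 and 7.49 CPM in WT, 7.58 and 8.01 CPM in TNFR1KO, 10.8, 5.58 and 6.42 CPM in Casp8 MLKL dKO, and 34.0, 37.5 and 136 CPM in Casp8 TNFR1 dKO livers. Liver 3 was again far above its companions. The log2 fold changes were 3.21 ± 0.53, 3.14 ± 0.62 and 3.18 ± 0.53 (adjusted p = 0.00793, 0.0306 and 0.0171, edgeR). Without liver 3 they were 2.27, 2.20 and 2.24, and each was still called. Leaving out WT liver 2 or 3 ended the call against WT, and leaving out Casp8 MLKL dKO liver 2 or 3 the call against Casp8 MLKL dKO. The call against TNFR1KO was lost without any WT liver, either TNFR1KO liver or Casp8 MLKL dKO liver 3.

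**Figure D5:**
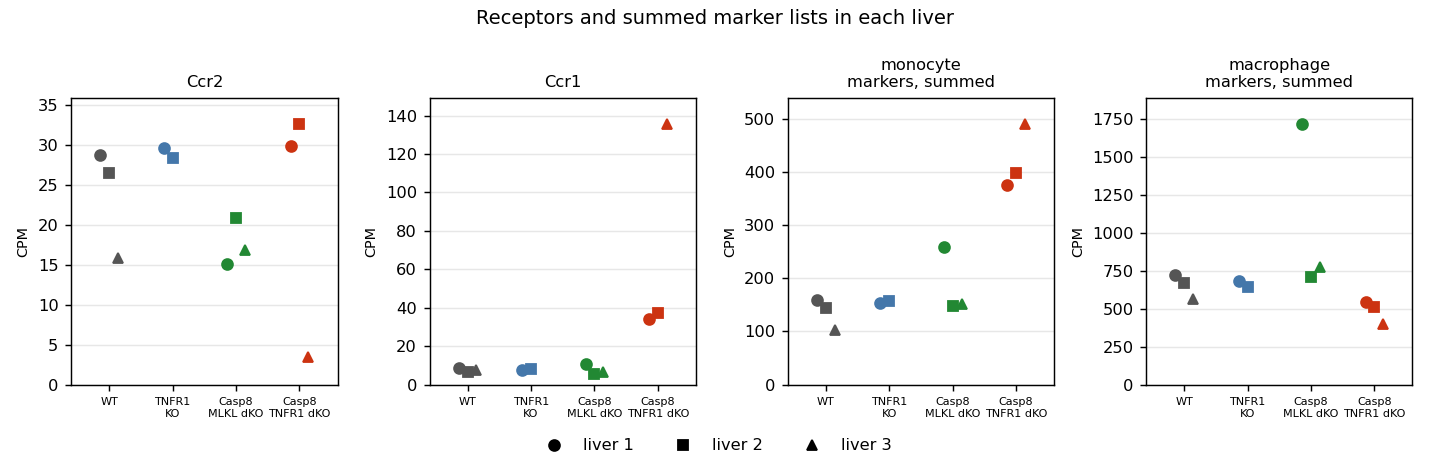
CPM of Ccr2 and Ccr1 and summed CPM of 10 monocyte and 12 macrophage marker genes in each liver, by genotype. Ccr1 and the monocyte sum are higher in all 3 Casp8 TNFR1 dKO livers than in the other 8, and Ccr2 in liver 3 of that genotype is the lowest value.

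Below the receptors, 20 genes for signalling from chemokine receptors to cell movement were tested, among them G protein subunits, arrestins, phosphoinositide 3-kinases, Rac2 and leukocyte integrins. Against WT 12 rose and 0 fell, against TNFR1KO 8 rose and 0 fell, and against Casp8 MLKL dKO 2 rose and 0 fell. The median log2 fold change of the list was 0.83, 0.81 and 0.38. In the comparisons of Casp8 MLKL dKO and TNFR1KO with WT 0 of the 20 were called. Among the largest against WT were the Src family kinase Fgr (3.12 ± 0.40, adjusted p = 0.00236, edgeR), and the integrin chains Itgam (2.92 ± 0.52, adjusted p = 0.0116, edgeR) and Itgb2 (2.19 ± 0.34, adjusted p = 0.00627, edgeR). The Itgam call was lost without WT liver 2 or 3. Without Casp8 TNFR1 dKO liver 3 the changes of Fgr, Itgam and Itgb2 were 2.61, 2.37 and 1.73, and each was still called. Fgr and Itgam are expressed mainly by myeloid cells, and Itgb2 by leukocytes in general.

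Marker genes of blood and liver cells were read beside these results, since in whole livers more cells of a type and more RNA per cell cannot be told apart. Of 10 monocyte markers 6 rose against WT, 3 against TNFR1KO and 1 against Casp8 MLKL dKO, and the summed level was 376 to 491 CPM in Casp8 TNFR1 dKO against 102 to 260 CPM in the other livers. Of 10 neutrophil markers 4 rose against WT, 1 against TNFR1KO and 0 against Casp8 MLKL dKO, and the sum was 5340 to 14500 CPM against 1150 to 3430 CPM, highest in liver 3. Of 12 macrophage markers 1 rose (Cd68) and 2 fell (Clec4f and Marco) against WT, 0 were called against TNFR1KO, and 3 fell against Casp8 MLKL dKO (Timd4, Marco and Adgre1). The macrophage genes given by name here were picked with their values known. The macrophage sum was 402 to 545 CPM in Casp8 TNFR1 dKO and 565 to 1720 CPM in the other livers. The part of these cell types in the chemokine results was not tested.

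Of 8 T and NK cell markers 4 were tested and 0 called, with summed levels of 5.19 to 13.3 CPM in Casp8 TNFR1 dKO and 5.56 to 22.9 CPM elsewhere, highest in Casp8 MLKL dKO liver 1, which also had the highest Ccl5. None of the mast cell and basophil, megakaryocyte, hepatocyte, erythroid or striated muscle markers was called in any comparison of Casp8 TNFR1 dKO, and 1 of 6 endothelial markers was, against WT (Pecam1, 1.30, adjusted p = 0.0449, edgeR). The 8 muscle markers had a median log2 fold change of 6.30 against WT, carried by liver 3. That liver also held the highest Ccl2, Ccl7, Ccl12, Ccl6 and Ccr1 and the lowest Ccl3, Ccl4 and Ccr2 of its group, and the 5 calls against WT were made without it. Ccl2 and Ccr2 were then set against the marker sums. Ccl2 was 0.071% ± 0.0087 of the macrophage sum in WT and 8.21% ± 6.79 in Casp8 TNFR1 dKO livers (SD, n = 3), and 0.35% ± 0.050 and 8.26% ± 4.22 of the monocyte sum. Liver 3 carried much of these means: without it Ccl2 was 4.30% of the macrophage sum and 5.83% of the monocyte sum, and over the 3 livers the shares ran from 3.93% to 16.0% and from 5.7% to 13.1%. Ccr2 was 3.58% of the macrophage sum in WT and 4.25% in Casp8 TNFR1 dKO (5.95% without liver 3). It was 17.3% and 5.61% (8.07% without liver 3) of the monocyte sum. Set against the neutrophil sum, Ccl2 was 0.033% ± 0.0019 in WT and 0.40% ± 0.041 in Casp8 TNFR1 dKO, a smaller contrast than with the other sums. Ccr2 was 1.68% ± 0.29 and 0.36% ± 0.29 of the neutrophil sum. Not every ligand followed Ccl2. As mean shares of the monocyte sum, Ccl3, Ccl4, Ccl5, Ccl7 and Ccl12 were also higher in Casp8 TNFR1 dKO than in WT. Ccl6 went from 5.17% to 4.41% and Ccl9 from 44.9% to 14.5% (3.43% and 15.3% without liver 3).

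For each gene the other tested genes with the most similar pattern were found by the root-mean-square (RMS) difference of log2 CPM over the 11 livers, each gene first centred on its own mean. Nearest to Ccl2 were Acod1, which encodes the itaconate-making enzyme of activated macrophages (RMS 0.361), and the collagenase gene Mmp13 (0.57), where the RMS of Ccl2 about its own mean was 2.60. The same genes were nearest to Ccl7, Mmp13 at 0.533 and Acod1 at 0.589, and Acod1 was nearest to Ccl12 at 0.632. Ccl4 lay nearest to interferon-inducible genes, Oasl1 (0.542) and the CXCR3 ligand gene Cxcl10 (0.579), and Ccl3 to Dhx58 (0.687), a gene of the RNA-sensing pathway. Ccl5 lay nearest to the formyl peptide receptor gene Fpr1 (0.512), and Ccl6 to Wfdc17 (0.271), which lies past Ccl3 and Ccl4 on chromosome 11. Ccl9 was nearest to H2-Q10 (0.0797), with an RMS of its own of only 0.373. The nearest to Ccr2 were the predicted genes Gm37660 (0.278) and Gm5364 (0.29). These likenesses are a description over 11 livers that share genotypes, and no test was made of them.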

How the data were processed

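The deposited tables hold, per the file headers, raw counts of reads per gene (Ensembl identifiers) and RPKM values with transcript width, 1 table for each liver. The authors sequenced single-end 50-base reads and aligned them with GSNAP 2013-11-10 to GRCm38/mm10, using uniquely mapped reads. The counting tool, and whether it used strand, are not given in the sources used here, and the labels and the study's methods name different library kits and sequencers. RPKM served only to repeat the ligand shares.

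Symbols came from GENCODE M21 (52403 of 52636 identifiers matched). Counts were analysed with edgeR 4.0.16 in R 4.3.3 (TMM factors 0.758 to 1.09, filterByExpr with a minimum count of 10, 1 quasi-likelihood fit of 4 genotypes, threshold 0.05), checked on simulated data. Intervals are log2 fold change ± SE times the t quantile. Alternatives used DESeq2 1.42.0, limma 3.58.1, other filters, a replicate block, 2-genotype fits and livers left out. Genes named outside the 9 were the 4 with the largest change per list and the 2 nearest in pattern, and some of these are not reported here. The 9 genes, all lists and this rule were chosen with earlier results of these data known. No 2 libraries agreed within sampling noise (lowest chi-square 6.45 per degree of freedom).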

Additional observations from a re-analysis of the deposited data

How the results depend on the processing

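Counts of the 9 genes called kept within 1.5 times of the reported ones under most settings that keep every liver: 5 to 7 against WT, and 5 to 7 against TNFR1KO apart from 3 with only those 2 genotypes fitted. Against Casp8 MLKL dKO the 2-genotype fit gave 1 and leaving out both libraries with low TMM factors, chosen after the data were seen, gave 8. Casp8 MLKL dKO against WT gave 1 call with quality weights and 3 with both low-TMM libraries left out, and 0 otherwise. The share of all genes called is given for the reported fit only. Counts under other settings therefore show how stable the calls were, not how the 9 genes compare with all genes. With livers left out in turn the counts ran from 5 to 6 against WT, 1 to 5 against TNFR1KO and 3 to 6 against Casp8 MLKL dKO, and the genes above all 8 other livers numbered 6 to 7. Same-numbered livers correlated in their deviations from the group means at -0.297 to 0.275. These means rest on 2 or 3 livers and differently numbered livers were not compared, so whether the numbers pair the livers is unknown. A replicate block gave 5, 5 and 4 calls, losing Ccl12 against Casp8 MLKL dKO (adjusted p = 0.0624, edgeR), and 0 in both other comparisons. It also ended the calls of Ccr1, Fgr, Itgam and Itgb2 against TNFR1KO and of Ccl20 against WT.

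Signs changed for Ccl3, Ccl5, Ccl6, Ccl9 and Ccr2, none of them called in the reported fit of the comparison concerned. For Casp8 TNFR1 dKO against WT, Ccl9 was at -0.038 with quality weights, -0.0048 with no filter and -0.069 to 0.13 with livers left out, and Ccr2 at 0.32 with quality weights, 0.42 without the low-TMM libraries and -0.48 to 0.41 with livers left out. Against TNFR1KO, Ccl9 was at 0.0010 with DESeq2 size factors, 0.0011 with the DESeq2 test, 0.0044 with a mean of at least 10 counts, 0.10 with the replicate block and -0.060 to 0.030 with livers left out, and Ccr2 at 0.069 with quality weights, 0.12 without the low-TMM libraries and -0.77 to 0.11 with livers left out. Against Casp8 MLKL dKO, Ccl9 was at 0.011 with limma-voom, 0.37 with quality weights, 0.47 without the low-TMM libraries (adjusted p = 0.00994, edgeR) and -0.43 to 0.49 with livers left out, and Ccr2 at -0.073 with limma-voom, 0.76 and called with quality weights (adjusted p = 0.0221, limma), 0.74 and called without the low-TMM libraries (adjusted p = 0.018, edgeR), -0.029 with the replicate block and -0.045 to 0.83 with livers left out. For Casp8 MLKL dKO against WT, Ccl9 was at -0.41 with quality weights, -0.47 without the low-TMM libraries (adjusted p = 0.0203, edgeR) and -0.47 to 0.46 with livers left out, and Ccl3 at -0.17 to 0.64. For TNFR1KO against WT, Ccl3 was at 0.21 with limma-voom, Ccl9 at -0.056 and Ccr2 at -0.039 with the replicate block, and livers left out gave -0.61 to 0.19 for Ccl3, -2.47 to 0.61 for Ccl5, -0.10 to 0.29 for Ccl6 and -0.067 to 0.13 for Ccl9. The cause of these changes was not tested. Of the values for single genes, 1179 kept their direction and side of the threshold, 50 gained and 94 lost a call, and 38 changed sign. Depth limits Ccl4, Ccl5, Ccl7 and Ccl12, which had at most 33 reads in any liver other than Casp8 TNFR1 dKO.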
